A study of Mus musculus with 2 samples.

Results

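The 44 genes described here are the classical cadherins, the remaining genes with a Cdh number, the non-clustered protocadherins, and the large Fat, Dachsous (Dchs) and Celsr cadherins of the mouse. They were taken from 43346 mouse gene identifiers by symbol and class in GENCODE M21: every protein-coding gene named Cdh or Pcdh with a number (Pcdh11x included), Fat1 to Fat4, Dchs1, Dchs2, or Celsr1 to Celsr3. No measured value entered this rule, though the members were chosen with earlier results of these data known. The RNA was total RNA of embryonic forebrain, day 12.5, from B6NCrl mice of mixed sex that were labelled healthy, with no treatment or engineered allele named. Replicate 1 was a pool of 120 embryos and replicate 2 a pool of 68 embryos. These 2 pools form 1 group, so levels are described and no test between conditions was possible. Values are TPM, the level of a transcript relative to all others of its library after division by length. Where a pair of values is given, replicate 1 stands before replicate 2, and errors are the SD over the pools.

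Cadherins are calcium-dependent adhesion proteins whose repeated extracellular domains bind between neighbouring cells. Classical cadherins hold beta-catenin and p120-catenin at their intracellular end and so connect to actin; in the embryonic forebrain they join neuroepithelial cells at the ventricular surface and help cells of different regions to sort. Delta-protocadherins bind weakly and recruit actin regulators, Fat4 and Dchs1 bind each other between cells, and Celsr proteins take part in planar polarity and in the guidance of axon tracts. Because the tissue was sequenced in bulk, fewer cells of a type and less RNA per cell cannot be told apart in any value below.

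Library totals were 33711030 and 34578499 expected counts, of which the family held 72996 and 75231. Spike-in RNA took 9.19% and 8.25% of TPM. The labelled tissue was checked against marker genes: 10 of 10 ventral telencephalon genes and 8 of 8 dorsal telencephalon genes were at 1 TPM or more in both pools. So were 9 of 9 endothelial, 9 of 9 mesenchymal and meningeal, and 6 of 6 erythroid genes, which belong to other cell types that a dissected forebrain holds. A floor of 3 counts corresponded to 0.00811 to 0.0913 TPM in replicate 1 and to 0.00779 to 0.130 TPM in replicate 2, depending on the length of the gene.

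Type I and type II cadherins are told apart by the first residues of the mature protein, where tryptophan side chains swap between partner molecules. The coding sequence of that stretch is shown because it separates type I from type II cadherins, the classes led by Cdh2 and Cdh11; Cdh2 itself was not among the genes searched. It was read from GENCODE M21 transcripts as 8 codons, 24 bases, after the cleavage site, on GRCm38. The capitals mark tryptophan codons.
Cdh4, chr2:179797560-179797583, plus strand: gacTGGgtcatcccacccatcaac
Cdh1, chr8:106653582-106653605, plus strand: gacTGGgtcatccctcccatcagc
Cdh11, chr8:102679657-102679680, minus strand: ggcTGGgtcTGGaaccaattcttt
Cdh6, chr15:13091695-13091718, minus strand: agtTGGatgTGGaatcagttcttc
Cdh8, chr8:99400771-99400794, minus strand: ggcTGGgttTGGaatcaaatgttt
Cdh7, chr1:109994321-109994344, plus strand: agcTGGgttTGGaatcagttcttc
Cdh5, chr8:104113034-104113057, plus strand: gacTGGattTGGaatcaaatgcac
The start was found in 16 of the 17 classical cadherins searched, with no match in Cdh19. The 4 type I genes found had 1 tryptophan codon in this stretch and the 12 type II genes had 2. The search itself required an arginine before the stretch, 1 of a few first residues and the first of these codons. It also required either 2 prolines or asparagine and glutamine right after the position of the second codon. The presence of these residues is no observation. In the genes shown they differ between the types, so the search was not blind to type. The lack of a match in Cdh19 says only that this pattern was not found.

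At 1 TPM or more in both pools were 33 of 44 members, against 60.0% of all protein-coding genes, and the other 11 were under 1 TPM in both. A mean of 10 TPM was reached by 15 members, against 41.6% of protein-coding genes, and 4 members reached 50 TPM. The median member stood at 6.71 TPM and the median protein-coding gene at 4.61 TPM. Among genes at a mean of 1 TPM or more the order was the other way, 9.07 TPM for members and 21.1 TPM for all protein-coding genes. Member TPM summed to 738 and 737, and 5 genes held 61.2% and 62.0% of it.

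**Figure D1:**
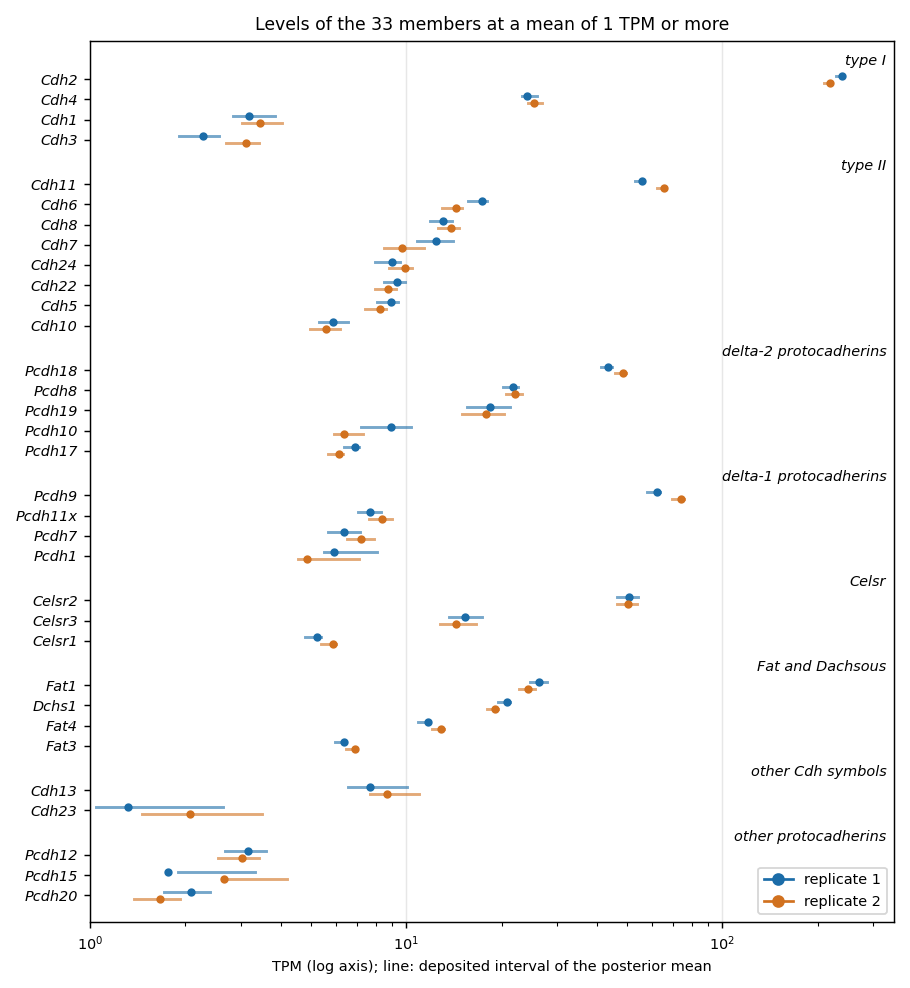
TPM on a log axis of 33 members averaging 1 TPM or more, by subfamily. Each gene has replicate 1 above replicate 2, the point is the deposited TPM and the line the deposited interval of the posterior mean, which does not always hold the point. Cdh2 lies alone at the right, and the leading gene of each of the larger subfamilies stands clear of the others in it, except among Fat and Dachsous genes.

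The type I cadherins were led by Cdh2, N-cadherin, the main adhesion molecule of neuroepithelium. Cdh2 (ENSMUSG00000024304, chromosome 18, 16588877 to 16809246, minus strand) measured 239 and 219 TPM, a mean of 229 ± 14.2 TPM. It held 32.4% and 29.7% of the TPM of the whole family and stood 3.84-fold and 2.95-fold above the next member. Cdh4, R-cadherin, which can bind N-cadherin, came next at 24.1 and 25.4 TPM (ENSMUSG00000000305, chromosome 2, 179442431 to 179899373, plus strand), so that Cdh2 was 9.25-fold higher on the means. Cdh1, the E-cadherin of epithelia, measured 3.17 and 3.44 TPM, which put Cdh2 69.3-fold above it. Cdh3, the P-cadherin of placenta and basal epithelia, measured 2.28 and 3.12 TPM and its pools did not overlap in their deposited intervals. These epithelial genes lie next to each other on chromosome 8 with 46.1 kb between them. Beside them, the 8 surface ectoderm markers summed to 51.8 and 49.7 TPM. Of these markers, 7 of 8 were at 1 TPM or more in both pools and none was at 0. By gene, 3 were higher in replicate 1 and 5 in replicate 2. Their median log2 ratio of TPM + 1, replicate 1 over replicate 2, was -0.31. The part of these markers in the levels of Cdh1 and Cdh3 was not tested. Cdh15, the M-cadherin of muscle, stayed at 0.490 and 0.690 TPM, while muscle markers summed to 3.75 and 9.29 TPM, with Myod1 listed at 0 in replicate 1; their part was not tested.

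Type II cadherins, which differ from type I in their binding pocket and mark regions and nuclei of the brain, had 8 of 13 members at 1 TPM or more in both pools, a share near the 60.0% of all protein-coding genes. Cdh11, OB-cadherin, known from bone and mesenchyme and present in developing brain, led with 55.8 and 65.5 TPM (ENSMUSG00000031673, chromosome 8, 102632095 to 102785642, minus strand). The 9 mesenchyme and meninges markers, among them Col1a1 and Col3a1, summed to 730.0 and 885 TPM, with none at 0; their part in the level of Cdh11 was not tested. Cdh6, a cadherin that marks brain regions and kidney epithelium, followed at 17.3 and 14.3 TPM, and Cdh8, which marks cortical and basal ganglia regions, at 13.1 and 13.9 TPM. A pair of genes was called different where the gap between them, in the same direction in both pools, exceeded the larger gap of either gene between pools. Cdh6 and Cdh8 did not meet this, since in replicate 2 Cdh6 exceeded Cdh8 by 0.04 on the log2 scale while Cdh6 itself differed by 0.26 between pools. Cdh7, known in chick from restricted domains of the neural tube, measured 12.4 and 9.69 TPM.

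Lower in the type II class, the little-studied Cdh24 measured 9.02 and 9.88 TPM and Cdh22, first described in pituitary and brain, 9.36 and 8.77 TPM. Cdh10, a neuronal cadherin, measured 5.87 and 5.57 TPM. Cdh5, the VE-cadherin of endothelial junctions, measured 8.96 and 8.25 TPM and so lay among these brain cadherins. The 9 endothelial markers summed to 148 and 154 TPM, 9 of 9 were at 1 TPM or more, and the highest was Egfl7 at 39.5 and 45.4 TPM, with Pecam1 at 12.7 and 12.3 TPM; their part in the level of Cdh5 was not tested. Some neighbouring genes of this class had unlike levels, as with Cdh10, which was 17.3-fold above Cdh9, 1962 kb away on chromosome 15. As a whole gene, Cdh7 stood at 12.4 and 9.69 TPM where Cdh20 had 0.580 and 0.650 TPM. Most of that Cdh7 level lay in transcripts with little coding sequence. Cdh7-202, with 2355 coding bases, held 0.730 and 0.740 TPM, so the gap to Cdh20 is not shown for full-length coding RNA. Cdh12 and Cdh18, with 959 kb between them on chromosome 15, had means of 0.730 and 0.705 TPM. Cdh12, Cdh18, Cdh20, Cdh9 and Cdh19 were the 5 type II genes under 1 TPM, between 0.120 TPM (Cdh19 in replicate 2) and 0.820 TPM (Cdh12 in replicate 1). Cdh19, which marks glia of the neural crest, rested on 19 and 10 counts, and the 5 neural crest glia markers summed to 11.1 and 12.2 TPM, with none at 0; their part was not tested.

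All 9 delta-protocadherins were at 1 TPM or more in both pools, against 60.0% of all protein-coding genes. Pcdh9 led the delta-1 group, whose longer intracellular part can bind protein phosphatase 1, and was the second gene of the family with 62.3 and 74.2 TPM (ENSMUSG00000055421, chromosome 14, 93013410 to 93890679, minus strand). It was 10.1-fold above Pcdh7 on the means, which had 6.37 and 7.19 TPM. Pcdh11x, the X-linked member, measured 7.69 and 8.37 TPM and Pcdh1 5.92 and 4.85 TPM. The delta-2 group, several of whose members bind the WAVE actin regulator, was led by Pcdh18 with 43.6 and 48.3 TPM. Pcdh8, the paraxial protocadherin also known as arcadlin, measured 21.8 and 22.0 TPM. Pcdh19, whose human counterpart is mutated in an epilepsy that mainly affects females, measured 18.3 and 17.8 TPM. Pcdh10, which binds Nckap1, had 8.92 and 6.34 TPM and Pcdh17, which acts on synaptic vesicles and axons, 6.90 and 6.12 TPM, and the pair rule could not order those 2 genes.

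The 2 main coding transcripts of Pcdh8 differ in the splice site that ends the first exon. The bases on either side of the junction are shown, with the end of the first exon in capitals; positions are on chromosome 14, minus strand.
Pcdh8-201, exon 1 ending at 79768497: GGCGCGCACGCCGAGccttacggtgcctct
Pcdh8-204, exon 1 ending at 79768788: CGCCGCAAGAAGGAGccttacggtgcctct
The second exon starts at 79768321 in both, and Pcdh8-204 leaves out 291 coding bases, 97 codons. Pcdh8-201 held 12.8 and 10.2 TPM, 58.7% and 46.2% of the gene, and Pcdh8-204 held 8.31 and 10.9 TPM, 38.1% and 49.3%. In replicate 1 the deposited intervals of the transcripts were apart, 10.4 to 14.5 TPM for Pcdh8-201 and 5.91 to 10.1 TPM for Pcdh8-204. In replicate 2 they overlapped, 7.75 to 11.6 TPM and 8.59 to 12.7 TPM, so which transcript led was not settled by these data.

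Pcdh10, chosen after its values were seen, spread over transcripts with different last exons. The 15 bases before the junction are the same in the 3 coding transcripts of 5 exons, and the first 15 bases of each last exon are in capitals (chromosome 3, plus strand, exon 4 ending at 45392874).
Pcdh10-202, last exon from 45419407: aaccaccatatttgaCGCGGAAAAGGATAT
Pcdh10-203, last exon from 45399323: aaccaccatatttgaATCATTTCCACCCTC
Pcdh10-201, last exon from 45432474: aaccaccatatttgaAAATGCTGTGGATGC
Pcdh10-202 held 2.83 and 2.67 TPM, Pcdh10-203 held 1.66 and 1.76 TPM, and Pcdh10-201 held 1.18 and 0.900 TPM. Another coding transcript, Pcdh10-204, has 1 exon and so none of these ends, and held 1.39 and 1.01 TPM. The intervals of Pcdh10-202 and Pcdh10-203 were apart in both pools. The short noncoding transcript Pcdh10-205 held 1.86 TPM in replicate 1 on 20.1 expected counts and was listed at 0 in replicate 2. The coding transcripts of Pcdh10 summed to 7.06 and 6.34 TPM, closer than the gene values of 8.92 and 6.34 TPM.

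The 3 Celsr genes, adhesion G-protein-coupled receptors with cadherin repeats, were all above 5 TPM. Celsr2, which acts with Celsr3 in cilia of the ependyma and in axon growth, measured 50.6 and 50.1 TPM (ENSMUSG00000068740, chromosome 3, 108390851 to 108415552, minus strand). Celsr3, needed for major axon tracts of the forebrain, measured 15.3 and 14.4 TPM, and Celsr1, best known for polarity of the neural plate and skin, 5.20 and 5.84 TPM. Both were below Celsr2 by more than the spread between pools, Celsr1 with a ratio of 0.110 and Celsr3 with a ratio of 0.295.

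Among Fat and Dachsous genes, which act in tissue polarity and growth, Fat1 measured 26.3 and 24.3 TPM. Dchs1, the ligand of Fat4, measured 20.8 and 19.0 TPM and Fat4 itself 11.7 and 12.9 TPM; changes in either human gene are known to disturb cortical development. Fat3, which shapes neurites of retinal amacrine cells, measured 6.37 and 6.89 TPM. Dchs2 was 181-fold below Dchs1 on the means, at 0.0900 and 0.130 TPM from 20 and 29 counts. Fat2, known from cerebellar granule cells, was at the floor, with 3 counts in each pool and 0.0100 TPM.

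The remaining genes were low. Cdh13, the T-cadherin that is anchored in the membrane by lipid, led them with 7.67 and 8.70 TPM. Pcdh12, a protocadherin of endothelium, measured 3.16 and 3.03 TPM, beside the endothelial markers given for Cdh5. Pcdh20 had 2.08 and 1.66 TPM. Pcdh15 and Cdh23, which form the tip links of hair cells, had 1.76 and 2.64 TPM and 1.32 and 2.07 TPM. Cdh26 was at 0.300 and 0.320 TPM. Cdh17, the cadherin of liver and intestine, rested on 4 counts in each pool and the kidney cadherin Cdh16 on 0 counts in both, which allows up to 0.0513 and 0.0493 TPM.

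Ordered by mean level, 43 pairs of neighbours could be compared, and 6 met the pair rule. These were Cdh2 over Pcdh9, Pcdh18 over Fat1, Cdh4 over Pcdh8, Pcdh1 over Cdh1, and at the low end Cdh17 over Fat2 and Fat2 over Cdh16, where values lie at or near the floor. The other 37 steps did not exceed the pool difference, so the pair rule does not resolve the order within those runs. By the deposited intervals, Pcdh9 lay above Cdh11 and Cdh23 above Cdh12 in both pools, though neither step met the rule. Of 20 pairs of related members, 18 met the same rule, 11 with the first gene higher and 7 with the second. Cdh6 with Cdh8 and Pcdh17 with Pcdh10 did not. The pairs were chosen with earlier results of these data known. How often pairs of other genes meet the rule was not measured, so the count is not a trait of the family.

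Differences between the pools were small for most members. Over 33 members the median log2 ratio of TPM + 1, replicate 1 over replicate 2, was -0.01 against -0.01 for 13092 protein-coding genes, and 16 members were higher in replicate 1 and 17 in replicate 2. The median size of the ratio was 0.13 for members and 0.09 for all protein-coding genes. No member passed 0.5 (0 of 33, against 2.96% of protein-coding genes); the largest ratio was 0.43 for Pcdh10. Deposited intervals of the pools did not overlap for 9 members, against 15.2% of protein-coding genes. Cdh2, Cdh6 and Pcdh17 were the 3 with replicate 1 above (7.94% of protein-coding genes), and Cdh11, Pcdh9, Pcdh18, Fat4, Celsr1 and Cdh3 the 6 with replicate 2 above (7.25%). For Cdh2 the intervals ran from 229 to 236 TPM in replicate 1 and from 210 to 216 TPM in replicate 2, and for Pcdh17 from 6.35 to 7.08 and from 5.63 to 6.30 TPM. For Pcdh9 they ran from 57.7 to 63.5 and from 69.3 to 75.8 TPM, and for Cdh11 from 52.7 to 55.8 and from 62.1 to 65.4 TPM. These bounds cover counting and read assignment within a library, not differences between embryos, and the more deeply counted members have the narrower ones: Cdh2 rested on 19243 and 18358 counts, Cdh3 on 178 and 254.

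**Figure D2:**
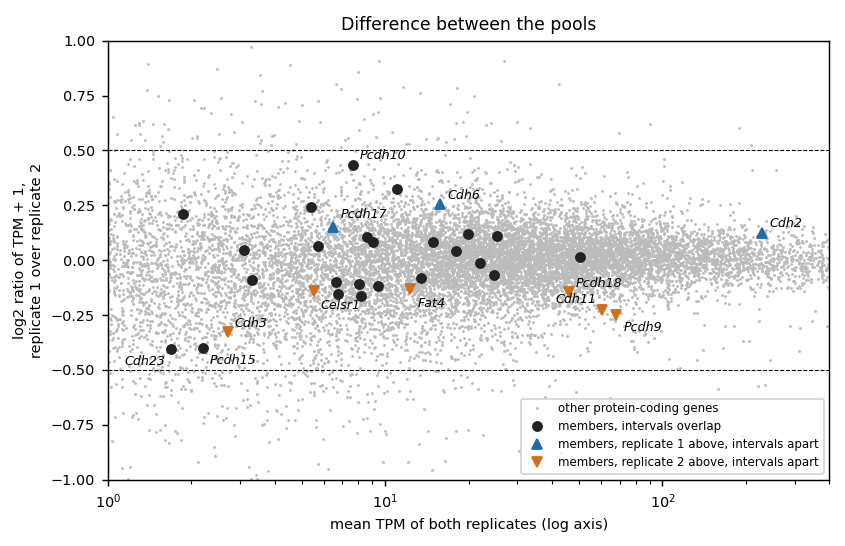
Log2 ratio of TPM + 1, replicate 1 over replicate 2, against mean TPM on a log axis, for members (large symbols) and other protein-coding genes between 1 and 400 TPM (grey points, of which 36 of 12771 lie beyond the frame). The dashed lines are the 0.5 threshold, and all 33 members lie between them.

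Several marker lists differed between the same pools. The 10 ventral telencephalon markers were all higher in replicate 1, summing to 694 TPM in it and 468 TPM in the other pool, and the dorsal telencephalon list summed to 475 and 505 TPM. The 9 mesenchyme and meninges markers were all higher in replicate 2, as were the 6 erythroid markers at 5994 and 8111 TPM, and the 6 roof plate and choroid plexus markers summed to 102 and 179 TPM. None of the genes in these lists was at 0. Whether these markers have a part in the 9 members with separated intervals was not tested.

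Transcript tables list 208 transcripts for the 44 members, and 14 members had 1 transcript only. Of the 30 members with several transcripts, 27 had the same leading transcript in both pools, and Pcdh8, Pcdh15 and Cdh18 did not. Of 15 members averaging 10 TPM or more, Cdh11, Cdh4 and Cdh6 had a leading transcript with 90% or more of the gene and 12 had less. Cdh11 and Cdh6 have 1 listed transcript each, so their share was fixed at 100%. Cdh4 has 6, and Cdh4-201 held 99.4% and 98.0%. Cdh2-202 and Cdh2-201, coding transcripts of 15 and 16 exons that begin at different first exons, held 60.1% and 32.3% of Cdh2 in replicate 1 and 57.9% and 33.0% in replicate 2. The leading shares of the other members were 62.9% and 62.1% for Pcdh9-205, 81.6% and 84.4% for Pcdh18-201, 52.7% and 57.2% for Fat1-203, 82.8% and 85.3% for Dchs1-201, and 90.7% and 87.6% for Fat4-201. Cdh8 had the lowest leading share of the 12, with Cdh8-204 holding 38.7% and 33.0% beside 3 further coding transcripts between 13.6% and 18.3%. The structures of Fat1-203 and Dchs1-201 differ in length between the files and M21, so only their shares are given. Fat1-203 led Fat1 by TPM but not by expected counts. It held 31.2% and 34.7% of the counts, against 68.2% and 64.7% for Fat1-205.

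For genes with short transcripts the share of TPM and the share of reads differed widely, since TPM divides reads by length. In Celsr2 transcripts under 1000 bases held 34.7% and 39.2% of TPM but 3.35% and 3.95% of counts, and Celsr2-201, with 34 exons, held 43.1% and 42.0% of TPM. Without those transcripts Celsr2 had 33.0 and 30.5 TPM, and it still exceeded Celsr3 and Celsr1 by the pair rule. In Pcdh19 the 335-base Pcdh19-204, annotated as a target of nonsense-mediated decay, held 44.4% and 43.3% of TPM on 38.7 and 38.1 expected counts, against 875 and 849 for Pcdh19-203 and 985 and 1118 for Pcdh19-202. In Celsr3 short transcripts held 26.2% and 32.2% of TPM, and in Cdh23, chosen after its values were seen, 53.0% and 81.3% on few reads, since the whole gene had 46 and 48 counts. Of 33 members, 5 had 20% or more of TPM in such transcripts in both pools, the last being Cdh7.

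In Cdh7 most TPM lay in transcripts with little coding sequence. The leading Cdh7-208, a transcript of 2 exons with 228 coding bases, held 46.3% and 48.7% of TPM on 541 and 463 expected counts, while the 13-exon Cdh7-202 with 2355 coding bases held 5.92% and 7.65% on 71.7 and 75.4 expected counts, that is 0.730 and 0.740 TPM. Counting coding transcripts alone left 30 members at 1 TPM or more in both pools, without Pcdh12, Pcdh15 and Cdh23. Cdh7 stayed among the 30, since Cdh7-208 is annotated as coding. The share of all protein-coding genes under this count was not measured. This count was made after the values were seen.

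**Figure D3:**
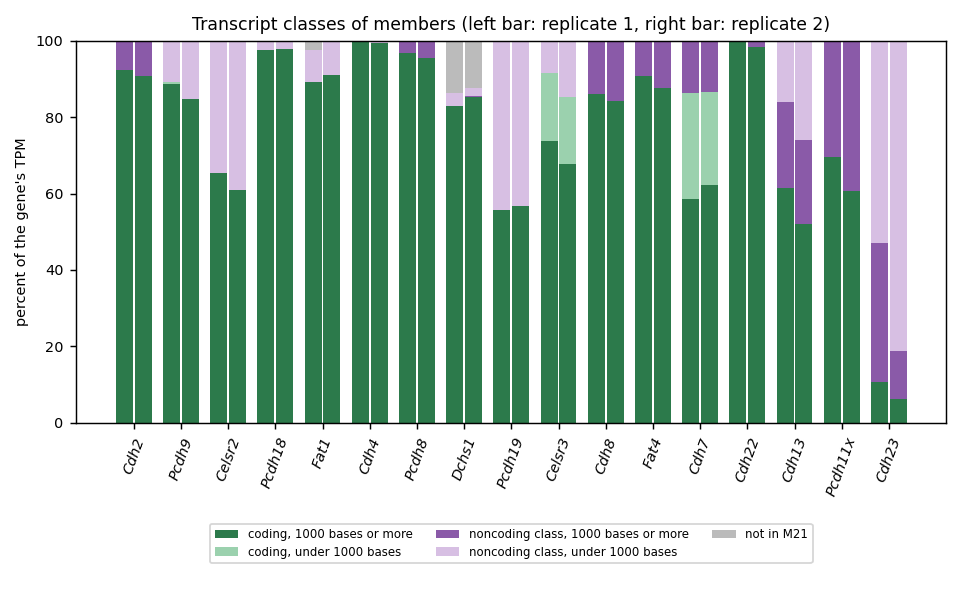
Percent of each gene's TPM held by transcript classes, for the 16 highest genes with several transcripts and Cdh23, with replicate 1 as the left bar and replicate 2 as the right bar. Pale bars are transcripts under 1000 bases; they hold much of Celsr2, Pcdh19, Celsr3, Cdh7 and Cdh23.

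Genes that work with the family were measured as a list of 31. All but Ctnna3, an alpha-catenin of heart and testis at 0.0400 and 0.280 TPM, were at 1 TPM or more in both pools, 30 of 31 against 60.0% of all protein-coding genes, with a median of 44.1 TPM. Ctnnb1, beta-catenin, measured 539 and 526 TPM, 16.7-fold above Jup, the junctional plakoglobin. Ctnna1 at 111 and 106 TPM exceeded the neural alpha-catenin Ctnna2 at 65.4 and 59.8 TPM. Ctnnd1, p120-catenin, at 43.6 and 44.5 TPM exceeded the neural delta-catenin Ctnnd2 at 17.2 and 15.1 TPM, and their relatives Arvcf and Pkp4 had 105 and 95.8 TPM and 16.3 and 15.4 TPM. Afdn, afadin, which links junctions to actin, measured 134 and 150 TPM and vinculin, Vcl, 14.7 and 16.4 TPM. Adam10, a protease that cleaves cadherins, measured 65.8 and 65.0 TPM.

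Of the planar polarity partners of Celsr proteins, 11 of 11 were detected. The Frizzled receptor Fzd3, which acts with Celsr3 in axon guidance, measured 69.9 and 67.2 TPM, 10.2-fold above Fzd6, and Vangl2 at a mean of 50.8 TPM was 13.2-fold above Vangl1. Ordered by mean, the other core genes ran from Ptk7 at 45.7 and 44.8 TPM to Prickle2 at 5.24 and 5.31 TPM. Dvl1 was the only partner past 0.5 in log2 ratio, with 5.00 and 7.59 TPM and a ratio of -0.52. This was 1 of 31 partners, against 2.96% of protein-coding genes at a mean of 1 TPM or more. Fjx1, the kinase that modifies Fat and Dachsous proteins, measured 34.3 and 40.1 TPM. The 7 WAVE complex genes bound by delta-2 protocadherins were all detected, between a mean of 35.3 TPM (Abi1) and a mean of 158 TPM (Brk1), with Nckap1 at 77.6 and 80.8 TPM. Intervals of the pools were apart for 14 of the 31 partners, 8 with replicate 1 above and 6 with replicate 2 above. The shares of protein-coding genes at a mean of 1 TPM or more were 15.2%, 7.94% and 7.25%. Those genes had a median of 21.1 TPM and the partners 44.1 TPM, so these shares were not compared at like levels.

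**Figure D4:**
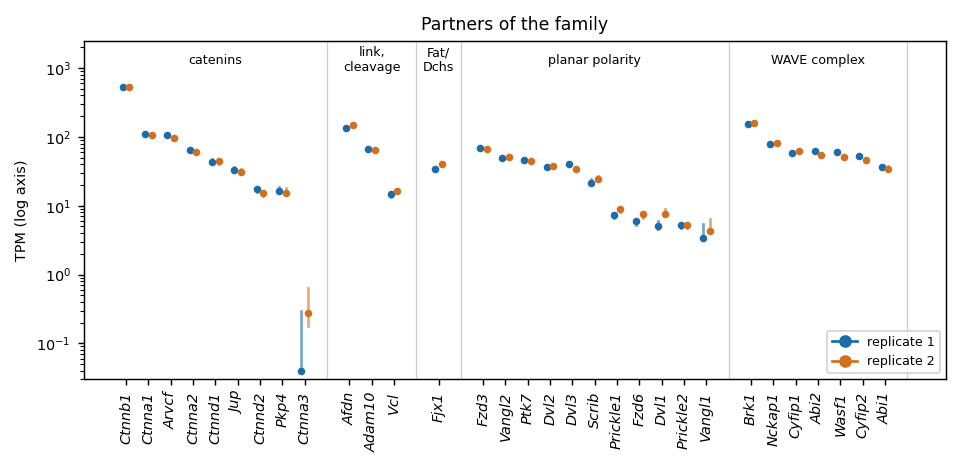
TPM on a log axis of the 31 partner genes by group, replicate 1 left of replicate 2, with the deposited interval as a line drawn from the lower end of the axis where it reaches below. Ctnnb1 is the highest gene and Ctnna3 the only one under 1 TPM.

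Members are spread over the genome, with 9 on chromosome 8, 6 on chromosome 15, and 5 each on chromosomes 3 and 14. Their length on the genome (GRCm38) varies widely, from 4.54 kb for Pcdh8 (chromosome 14, 79766775 to 79771312, minus strand) to 1550.4 kb for Pcdh15 (chromosome 10, 73099342 to 74649737, plus strand). Between them lie Pcdh9 with 877 kb, Cdh13 with 1041 kb (chromosome 8, 118283733 to 119324921, plus strand) and Cdh12 with 1140.3 kb. Fat1 lies on chromosome 8 from 44935447 to 45052257 on the plus strand, Dchs1 on chromosome 7 from 105752990 to 105787654 on the minus strand, and Fat4 on chromosome 3 from 38886940 to 39011985 on the plus strand. Pcdh18 lies on chromosome 3 from 49743296 to 49757325 on the minus strand, Pcdh19 on chromosome X from 133582860 to 133688987 on the minus strand, and Celsr3 on chromosome 9 from 108826320 to 108852969 on the plus strand. Cdh6 (chromosome 15, 13028701 to 13173675, minus strand), Cdh8 (chromosome 8, 99024471 to 99416471, minus strand) and Cdh7 (chromosome 1, 109982431 to 110140157, plus strand) are the other type II genes at 10 TPM or more beside Cdh11. On chromosome 14, Pcdh8, Pcdh17, Pcdh20 and Pcdh9 follow one another with 3926 to 4672 kb between neighbours, and their mean levels were 21.9, 6.51, 1.87 and 68.2 TPM. The Cdh1 and Cdh3 pair on chromosome 8 is far closer and both were near 3 TPM. Annotated genes overlap exons of several members, as with C230034O21Rik, which runs opposite to Fat4 over 1209 bases and was listed at 2.77 and 2.83 TPM. The sources used here do not say whether counting used strand, so reads in such stretches cannot be assigned with certainty.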

How the data were processed

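Per the labels, each library was made from 10 ng of RNA extracted by mirVana, with ERCC spike-ins added. A gene table and a transcript table per pool were used. Per the text deposited with them, each was made from transcriptome alignments of that replicate alone on mm10 with GENCODE M4. The aligner and quantifier were not given in the sources used here. Expected counts deposited by the authors are estimated reads per feature. The authors' TPM is relative to the sum over genes, spike-ins and unnamed features. The deposited FPKM is scaled by length and library size. The deposited percent is each transcript's share of its gene. The deposited interval bounds are a signal in TPM around the posterior mean; TPM lay inside for 41 and 40 of 44 members, and no source states their level.

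Gene and transcript names came from GENCODE M21 on GRCm38 by identifier without version; exon structures were set beside transcript values only where lengths matched (186 of 208). Expected counts were rounded for edgeR 4.0.16 and DESeq2 1.42.0, which gave scaling only (R 4.3.3); other steps used Python 3.11.15, numpy 2.4.6, pandas 2.3.3 and matplotlib 3.10.9. Detection was set at 1 TPM, ratios used log2(TPM + 1), and a pair counted where it differed in both pools, in 1 direction, by more than the larger pool difference of either gene. Pools are the only replicates, so spread between them is all that errors measure, and counts without molecular identifiers give floors for counting error only. Members averaging 1 TPM or more are named with both values, and transcripts for members averaging 10 TPM or more whose leading transcript holds under 90%, unless said otherwise. Procedures were tested on simulated data. Members, lists and pairs were chosen with earlier results of these data known. Of the genes first listed as partners, 1 is not reported here.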

Additional observations from a re-analysis of the deposited data

How the results depend on the processing

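No paired analysis was possible because the 2 pools form a single group. The count of detected members, 33 at 1 TPM or more in both pools, ran from 30 to 36 under the 9 settings tried. These settings included thresholds of 0.5 TPM and 2 TPM, values in FPKM and each replicate alone. The count of members with separated intervals was 9 under both alternatives. The median over members, 6.71 TPM, was 6.62 with posterior means, 4.04 in FPKM, 7.34 without spike-ins, 6.02 from protein-coding transcripts, 6.57 from transcripts of 1000 bases or more, 9.07 among members averaging 1 TPM or more, and 6.62 to 6.64 with a replicate left out; the causes were not tested. Members past 0.5 in log2 ratio numbered 0 in the main setting and 2 (Pcdh15 and Cdh23) with a pseudocount of 0.1. With TMM-scaled or DESeq2-scaled counts there was 1 (Pcdh15). In those settings the pseudocount of 1 was added to counts and not to TPM. They therefore differ from the main setting in more than the scaling. The share of all protein-coding genes past 0.5 under these 3 settings was not measured. The median log2 ratio of members turned from -0.0145 to 0.0109 under TMM and to 0.0038 under DESeq2; the median of all protein-coding genes moved from -0.0054 to 0.0148 and 0.0076 under the same scalings. Of 25 pairs, 23 met the rule, and 22 with posterior means (Pcdh11x with Pcdh1 did not). The setting of transcripts of 1000 bases or more was applied to the 20 pairs of members only. The 5 pairs of partners kept their whole-gene values there, and the count stayed at 23. Levels from protein-coding transcripts moved by over 1.5 times for 7 members, Celsr2, Pcdh19, Cdh13, Pcdh11x, Pcdh12, Pcdh15 and Cdh23, and from transcripts of 1000 bases or more for 3, Celsr2, Pcdh19 and Cdh23. Settings on transcript classes were added after seeing the data.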

Other observations

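Among 29 members with a RefSeq promoter window of 300 bases on GRCm38 (250 before and 50 after the start), the dinucleotide CG, read once as it equals its own reverse complement, occurred 19 times at the median of the 21 members averaging 1 TPM or more and 8.5 times at the median of the 8 members under 1 TPM. The counts of the 2 sets overlapped, 2 to 40 against 4 to 27, with Fat1 and Cdh10 at 2 and Dchs2 at 27. The order was the same over all protein-coding genes with a window, with medians of 22 for 10230 genes averaging 1 TPM or more and 3 for 6087 genes under 1 TPM. The median over all 27025 genes of the table was 8, and 94.6% of 32851 windows held CG. Where a gene had several windows, the one with most CG was kept, and 15 members, Cdh2 and Cdh11 among them, had none. A window need not belong to the main transcript. That of Cdh10 lies at the start of Cdh10-201, which held 2.06% and 9.95% of its TPM, and not at that of the leading Cdh10-202. The windows of Cdh6 and Cdh9, neighbours on chromosome 15, held 8 each, while their mean levels were 15.8 and 0.330 TPM, 48.0-fold apart. The 2 genes were chosen after their values were seen. Their windows share a run of 15 bases, given in capitals, picked as the longest that their 250 bases before the start have in common. It was found in no other of the 32851 windows on either strand. A run of this length picked from 2 windows is rarely met in others, so this absence does not show a shared element. The 91 bases before the M21 start of each gene are shown from the RefSeq table.
Cdh6, chr15:13173676-13173766, minus strand: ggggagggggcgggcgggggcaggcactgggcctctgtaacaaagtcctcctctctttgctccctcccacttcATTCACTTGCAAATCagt
Cdh9, chr15:16728665-16728755, plus strand: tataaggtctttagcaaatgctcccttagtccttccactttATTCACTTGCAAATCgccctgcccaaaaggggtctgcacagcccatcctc
The run ends 3 bases before the M21 start of the gene Cdh6 and 35 bases before that of the gene Cdh9. All TPM of Cdh9 was on Cdh9-201, whose M21 start is at 16778101, downstream of the window shown, and whose length differs between the files and M21, so the window is not shown to be the promoter of the measured transcript.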
